A study of Mus musculus with 16 samples.

Results

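The core components of the spliceosome, the machine that removes introns from pre-mRNA, were examined as 40 genes in mouse CD8+ T cells after targeting of Tardbp. The members were found by their GENCODE M21 symbol and make up 40 of the 55536 annotated genes in the gene count table. They encode proteins of the U1 snRNP and its LUC7-like partners (6 genes), the factors that bind the branch point and the 3′ splice site (3), and the U2 snRNP (11). The others encode proteins of the Sm ring (7), the U5 and U4/U6 tri-snRNP, grouped with Prpf38a (8), and the Prp19 complex with Rbm22 (5). The rule that defines the members uses no measured value, but they were chosen with earlier results of these data known.

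Each intron is recognised by the U1 snRNP at its 5′ end and by SF1, U2AF and the U2 snRNP at its branch point and 3′ end. The tri-snRNP of U4, U6 and U5 then joins, its helicases rearrange the RNAs, and the Prp19 complex stabilises the catalytic core. The Sm proteins form a ring on the U1, U2, U4 and U5 RNAs and are needed for their assembly. Activated T cells divide quickly and make large amounts of new mRNA, and TDP-43, the RNA-binding protein encoded by Tardbp, acts on the choice of exons rather than as a part of this core machine.

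The cells came from OT-I Tg mice on a C57BL/6J background, whose transgenic T cell receptor recognises SIINFEKL, a peptide of ovalbumin; per the methods these donors lacked Rag1 or Rag2. They were electroporated with Cas9 and either a scrambled guide (Control gRNA, 8 libraries) or a guide against Tardbp (Tardbp gRNA, 8 libraries) and were transferred into C57BL/6J mice. Recipients of both groups received the antigen together with anti-OX40 and anti-41BB agonist antibodies, so no group here lacked costimulation. The labels give 4 days until collection from spleen and lymph nodes, while the methods give a shorter time. The edited cells were a mixed population and not a clone, sorted in bulk, so that fewer cells of a type and less RNA per cell cannot be told apart in any value that follows. Per the study, cells were collected from individual recipient mice. Its methods give 1 age range for all mice used, of both sexes, and the labels give no age for a group. A letter for sex is deposited for each library. It was M for Control gRNA replicates 1, 4 and 5 and for Tardbp gRNA replicates 1, 2, 3, 4 and 6, and F for the others. The letter was thus unequally spread between the groups.

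Each library held between 56016533 and 94801105 estimated counts in annotated genes. The RNA concentration recorded for the input of library preparation is given without a unit. It spanned 34.9 to 197.1 for Control gRNA libraries and 10.1 to 24.0 for Tardbp gRNA libraries, and the groups did not overlap. Tardbp itself had a lowest, median and highest level of 172, 198 and 207 CPM (the count relative to the TMM-scaled total of its library) in Control gRNA, and of 110.4, 136 and 147 CPM in Tardbp gRNA. Every Tardbp gRNA library lay below every Control gRNA library (log2 fold change -0.51, SE 0.056, edgeR adjusted p = 8.07e-07; exact two-sided permutation p = 0.000155, the smallest that 8 against 8 libraries allow). Of 8 markers of CD8 T cells, 7 were higher in Tardbp gRNA and 1 was lower, and all were detected. Of 30 cell cycle genes, 28 were lower and none higher (median log2 fold change -0.58), and their summed level spanned 16490 to 18380 CPM in Control gRNA but 10310 to 12970 CPM in Tardbp gRNA. The B cell markers summed to 393 to 472 CPM and 564 to 733 CPM (3 of 7 tested higher, Pax5 under 1 CPM in every library). The myeloid markers summed to 14.8 to 37.1 CPM and 19.3 to 80.2 CPM (2 of 6 higher), the red cell markers to 0.442 to 17.4 CPM and 9.02 to 182 CPM (4 of 4 higher), and the CD4 T cell markers to 4.39 to 20.7 CPM and 6.15 to 15.6 CPM (0 of 4 called by edgeR, and 0 with an unadjusted p under 0.05). The part of the RNA concentration, of the cell cycle genes and of these other cell types in the results on the spliceosome genes was not tested.

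To ask whether the core splicing machinery itself changed when Tardbp was targeted, the 40 genes were read from a fit over all 16650 tested genes. All 40 passed the filter on low counts. In Tardbp gRNA, 23 were lower and 9 were higher, and 8 did not pass the test (edgeR adjusted p under 0.05, two-sided). The falls, from -0.10 to -0.88 on the log2 scale, were wider than the rises, from 0.10 to 0.22. Among all tested genes 46.7% were called, 23.3% lower and 23.5% higher. The share of members called lower was thus 57.5%, and the share called higher 22.5%. The median log2 fold change of the members was -0.23, beside 0.05 for all tested genes. For 18 of the 40 members all 8 Tardbp gRNA libraries lay below all 8 Control gRNA libraries, which held for 10.3% of all tested genes. For none of the members did they all lie above, beside 6.61% of all tested genes. Summed over the 40 genes, the level was 8215, 8620 and 9026 CPM (lowest, median and highest) in Control gRNA and 6975, 7409 and 7593 CPM in Tardbp gRNA. With RNA concentration (log2) added as a covariate, 16 members were called, all of them lower, and with the libraries numbered 1 to 3 alone 10 were called, also all lower. Calls fell among all tested genes too, from 7783 of 16650 genes to 2697 of 16650 with the covariate. They fell to 1696 of 16871 genes with numbers 1 to 3, so the drop is not read as particular to the members. The shares of all genes by direction in these fits are not given here. Under upper quartile scaling or library totals alone, 21 fell and 11 rose, since Snrpb2 and Snrpf were then called higher while Sf3b2 and Cdc5l no longer passed. No member called in the fit over all libraries changed its direction in these or in the other settings tried.

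**Figure D1:**
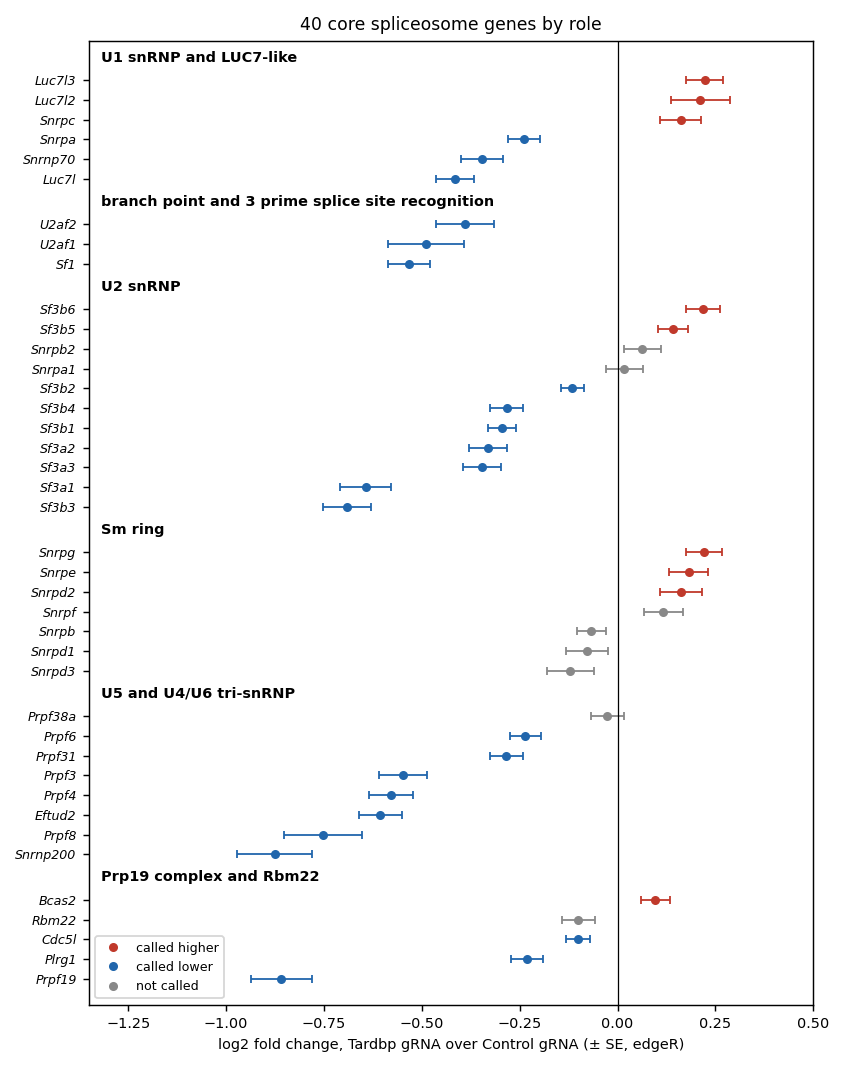
Log2 fold change (Tardbp gRNA over Control gRNA, horizontal axis) of the 40 core spliceosome genes, grouped by role, with bars of 1 SE from edgeR. Blue marks the 23 genes called lower, red the 9 called higher and grey the 8 not called. All points of the branch point factors and of the tri-snRNP lie left of 0, while the Sm ring genes lie between -0.12 and 0.22.

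Levels differed widely between the members. Per kilobase of the transcript with the most counts, Control gRNA libraries held most of Snrpb, with 564 ± 32.9 CPM per kb (SD, n = 8), and of Snrpe, with 505 ± 35.9 CPM per kb. Both encode Sm proteins, which are shared by several snRNPs. The lowest was Luc7l2, with 8.06 ± 0.903 CPM per kb (SD, n = 8), followed by Prpf4 with 18.8 ± 0.779 and Prpf8 with 19.2 ± 1.92 CPM per kb. The last 2 did not differ beyond their spread. Within the U5 snRNP, Control gRNA held 133 ± 8.1 CPM per kb of Eftud2, 33.1 ± 4.85 of Snrnp200 and 19.2 ± 1.92 of Prpf8, and Tardbp gRNA held 87.4 ± 8.14, 18.01 ± 2.55 and 11.4 ± 2.1 CPM per kb. The order of these 3 partners was the same in both groups.

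Among the U1 snRNP genes and the LUC7-like genes, 3 fell and 3 rose, with a median of -0.04. Snrnp70 (log2 fold change -0.35) and Snrpa (-0.24), which encode proteins U1-70K and U1-A of the U1 particle, fell, whereas Snrpc, which encodes U1-C, rose by 0.16. The 3 LUC7-like genes, whose yeast relative belongs to the U1 snRNP and acts on the choice of 5′ splice sites, went apart. Luc7l (chromosome 17, 26252896 to 26285504) had a lowest, median and highest level of 106.6, 125 and 128 CPM in Control gRNA and of 84.8, 90.9 and 102 CPM in Tardbp gRNA. The groups did not overlap, and the log2 fold change was -0.42 (SE 0.048, edgeR adjusted p = 1.44e-06). Luc7l3 (chromosome 11, 94287890 to 94321988) had 94.4, 103.6 and 111.5 CPM in Control gRNA and 110.3, 119 and 132 CPM in Tardbp gRNA. Its groups overlapped slightly, and it had the highest log2 fold change of the 40 genes at 0.22 (SE 0.047, edgeR adjusted p = 0.00071). Luc7l2 stood at 28.4, 35.5 and 38.5 CPM in Control gRNA and 35.8, 38.6 and 46.0 CPM in Tardbp gRNA, with an overlap between the groups (log2 fold change 0.21, SE 0.075, edgeR adjusted p = 0.0275).

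All 3 genes for branch point and 3′ splice site recognition fell. Sf1 (chromosome 19, 6363690 to 6378030) encodes the protein that first binds the branch point. Its lowest, median and highest levels were 337.5, 372 and 394 CPM in Control gRNA and 209, 258 and 283 CPM in Tardbp gRNA, without overlap (log2 fold change -0.53, SE 0.055, edgeR adjusted p = 4.37e-07). U2af1 and U2af2, which encode the small and large subunits of the U2AF dimer on the 3′ splice site, fell by 0.49 and 0.39 on the log2 scale. Tardbp gRNA replicate 3 was the lowest library for U2af1, at 72.0 CPM beside 112 to 140.3 CPM in the other 7, and without it the log2 fold change of U2af1 was -0.41.

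Of the 11 genes of the U2 snRNP, 7 fell, 2 rose and 2 did not pass the test. Those that fell belong to the SF3A and SF3B complexes, which hold U2 to the branch point: Sf3a1, Sf3a2, Sf3a3, Sf3b1, Sf3b2, Sf3b3 and Sf3b4. Sf3b3 (chromosome 8, 110810239 to 110846787) fell most, from a lowest, median and highest level of 469, 548 and 609 CPM in Control gRNA to 300.0, 344 and 383 CPM in Tardbp gRNA. Its groups lay well apart (log2 fold change -0.69, SE 0.061, edgeR adjusted p = 1.16e-07). Sf3a1 (chromosome 11, 4160350 to 4182541) went from 189, 202.2 and 224.5 CPM to 106.4, 131.5 and 158 CPM, again without overlap (log2 fold change -0.64, SE 0.066, edgeR adjusted p = 4.36e-07). Sf3b1, the gene of the SF3B scaffold, fell by 0.29. The 2 that rose encode small SF3B proteins. Sf3b6 (chromosome 12, 4817544 to 4827659), whose product contacts the branch point region, had 194, 208 and 231 CPM in Control gRNA and 218, 244 and 266 CPM in Tardbp gRNA, with a small overlap (log2 fold change 0.22, SE 0.044, edgeR adjusted p = 0.000455). Sf3b5 had a log2 fold change of 0.14. Snrpa1 and Snrpb2, which encode the U2-specific proteins A′ and B″, had log2 fold changes of 0.02 and 0.06 and did not pass the test.

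None of the 7 Sm ring genes fell, and 3 rose. Snrpg (chromosome 6, 86371304 to 86379328) had a lowest, median and highest level of 254, 270.2 and 320 CPM in Control gRNA and of 289.5, 323 and 349 CPM in Tardbp gRNA. The groups overlapped through Control gRNA replicate 1, the highest Control gRNA library (log2 fold change 0.22, SE 0.046, edgeR adjusted p = 0.000703). Snrpe (chromosome 1, 133603871 to 133610291) had 235, 251 and 288.5 CPM in Control gRNA and 264, 285 and 326 CPM in Tardbp gRNA, with overlapping groups (log2 fold change 0.18, SE 0.05, edgeR adjusted p = 0.00567). Snrpd2 rose by 0.16. Snrpf (0.12), Snrpb (-0.07), Snrpd1 (-0.08) and Snrpd3 (-0.12) did not pass the test. Under the other scalings named, the value of Snrpb was slightly above 0.

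The tri-snRNP genes had the lowest median of the 6 groups, at -0.56. Of the 8 genes, 7 fell and none rose, and in all 7 the groups did not overlap. Snrnp200 (chromosome 2, 127208386 to 127240451) encodes Brr2, the helicase that unwinds U4 from U6. It had the lowest log2 fold change of the 40 genes. Its level was 175, 221 and 274 CPM (lowest, median and highest) in Control gRNA and 97.4, 125 and 147 CPM in Tardbp gRNA (log2 fold change -0.88, SE 0.096, edgeR adjusted p = 8.96e-07). Prpf8 (chromosome 11, 75486816 to 75509449), which encodes the large scaffold around the catalytic centre, went from 119, 144 and 167 CPM to 60.8, 87.4 and 110.6 CPM. Its highest Tardbp gRNA library lay just under its lowest Control gRNA library (log2 fold change -0.75, SE 0.1, edgeR adjusted p = 6.64e-06). Eftud2 (chromosome 11, 102838473 to 102880985), the gene of the U5 GTPase, went from 396.5, 445 and 473 CPM to 248.6, 290.5 and 330 CPM (log2 fold change -0.61, SE 0.055, edgeR adjusted p = 1.45e-07). Prpf3 and Prpf4, which encode partners on the U4/U6 RNA, fell by 0.55 and 0.58, and Prpf31 and Prpf6, which join U4/U6 to U5, fell by 0.28 and 0.24. Prpf38a, which encodes a protein of the complex before activation, was at -0.03 and did not pass the test, and it lay slightly above 0 under those scalings.

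In the Prp19 complex, Prpf19 stood apart from its partners. Prpf19 (chromosome 19, 10895231 to 10909559), which encodes the ubiquitin ligase at the centre of the complex, had a lowest, median and highest level of 238, 264 and 316.5 CPM in Control gRNA and of 110.1, 152.5 and 165 CPM in Tardbp gRNA. The groups did not overlap, and the log2 fold change was -0.86 (SE 0.077, edgeR adjusted p = 1.38e-07). Plrg1 and Cdc5l, whose products are partners of Prp19 in the complex, fell by 0.23 and 0.10, with overlapping groups. Bcas2 rose by 0.10. Rbm22, which encodes a protein that contacts U6 in the active spliceosome, had a log2 fold change of -0.10 and did not pass the test.

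**Figure D2:**
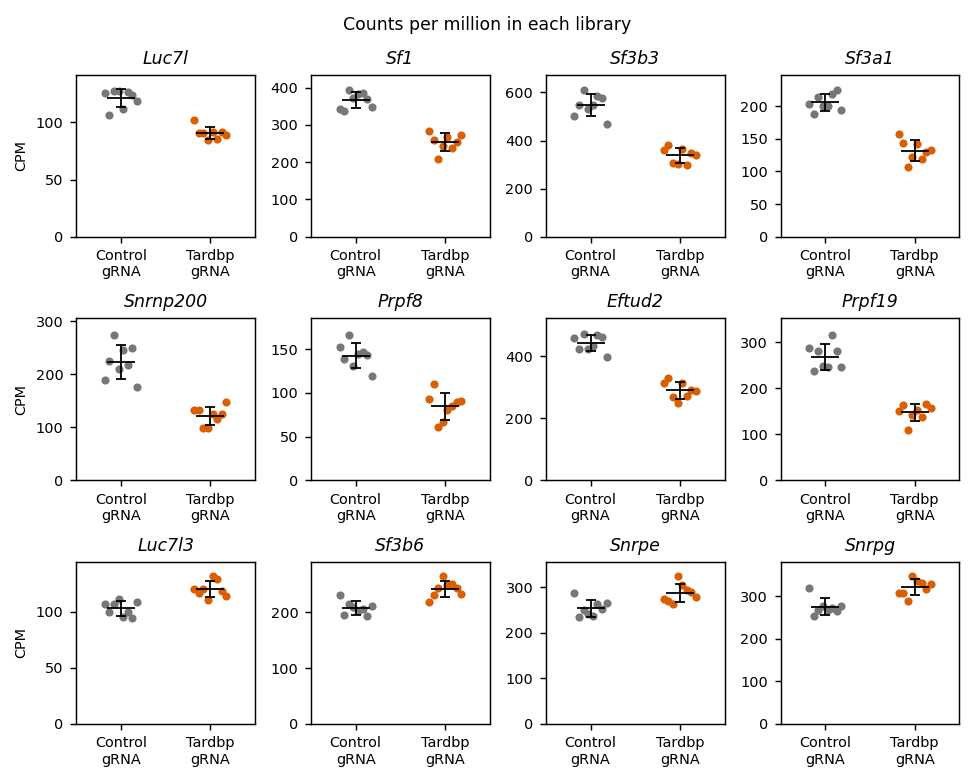
Level in CPM (vertical axis, from 0) of 12 core spliceosome genes in each of the 8 Control gRNA (grey) and 8 Tardbp gRNA (orange) libraries, with the mean and SD in black. The top 2 rows show genes that fell, in which no Tardbp gRNA library reaches a Control gRNA library, such as Snrnp200 with at most 147 CPM beside at least 175 CPM. The bottom row shows genes that rose, in which the groups overlap.

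Levels were also summed by role. The tri-snRNP genes together held 1321 to 1568 CPM in Control gRNA but 920 to 1119 CPM in Tardbp gRNA, so that the Tardbp gRNA mean was 70.4% of the Control gRNA mean. The branch point and 3′ splice site genes stood at 70.8% (574 to 655 CPM and 337 to 480 CPM), the Prp19 group at 83.2%, the U2 snRNP at 83.9% and the U1 group at 90.9%. The Sm ring genes stood at 102.7%, with 1767 to 2189 CPM in Control gRNA libraries and 1913 to 2092 CPM in the Tardbp gRNA libraries. The groups overlapped in this last sum and in none of the other 5.

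Replicate libraries of Tardbp gRNA moved together. Set against the Control gRNA mean of each gene on the log2 CPM scale, the median of the 40 members lay between -0.28 and -0.13 in the 8 Tardbp gRNA libraries and between -0.10 and 0.10 in the Control gRNA libraries. Over the 23 members called lower, replicate 3 of Tardbp gRNA was lowest at -0.60 and replicate 2 highest at -0.30. This spread is a description, since these genes were chosen by the same comparison.

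The direction of the members went with the length of their transcripts. Lengths were taken from the annotated transcript with the most counts. Of the 4 members under 1000 bases (Snrpe, Snrpc, Snrpd1 and Snrpf), 2 rose and none fell. Of the 13 members from 1000 to under 2000 bases, 4 rose and 6 fell. Of the 7 from 2000 to under 3000 bases, none rose and 5 fell. Of the 16 members of 3000 bases and over, 3 rose and 12 fell, the risers being Sf3b5, Luc7l2 and Luc7l3. Across the 40 genes, log2 length and log2 fold change had a Pearson r of -0.56 and a Spearman rho of -0.52, given as a description over genes that were measured in the same libraries and are not independent replicates. The same slant was present over 12245 tested protein-coding genes, with a Pearson r of -0.20 and a Spearman rho of -0.24. There, 51.5% of 903 genes under 1000 bases rose and 5.98% fell, and of 5809 genes of 3000 bases and over 15.2% rose and 36.7% fell. The medians of the members by length class were 0.14, -0.07, -0.39 and -0.29, from the shortest to the longest, beside 0.25, 0.10, -0.02 and -0.12 for protein-coding genes, so the members lay below the protein-coding genes in each class. The part of transcript length in the result was not tested.

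**Figure D3:**
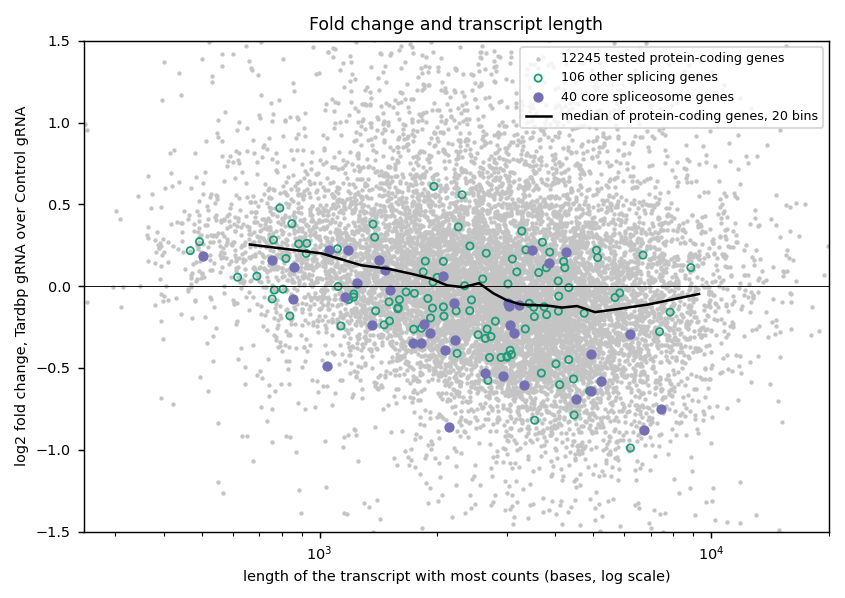
Log2 fold change (Tardbp gRNA over Control gRNA, vertical axis) against the length in bases of the transcript with most counts (horizontal log axis). Purple points are the 40 core spliceosome genes, green circles 106 other splicing genes, grey points protein-coding genes (264 of 12245 lie outside the axes), and the black line their median in 20 length bins. The purple points go from above 0 at the short end to as low as -0.88 among the longest, and most lie below the line.

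Other genes of the splicing pathway were counted from 5 lists. Of 106 tested genes (109 listed), 42 fell (39.6%) and 26 rose (24.5%), with a median of -0.07. Among all tested genes 23.3% fell and 23.5% rose. Under upper quartile scaling 29 of these other splicing genes fell and 31 rose. With library totals alone 31 fell and 33 rose, so the balance of falls and rises depended on the scaling. The median over all tested genes was 0.12 under both of these scalings and 0.05 under TMM. The shares of all genes by direction under them are not given here, so an excess over all genes was not compared. Among the LSm genes, whose products form the ring on U6 RNA and a related ring in mRNA decay, 5 of 8 rose and 1 fell (median 0.16), from Lsm2 at -0.18 to Lsm5 at 0.27. Among 18 genes of snRNP assembly, 9 fell and 3 rose (median -0.14). The lowest there was Gemin5, whose product brings snRNAs to the SMN complex, with 68.9, 81.1 and 95.6 CPM (lowest, median and highest) in Control gRNA and 34.5, 41.5 and 48.9 CPM in Tardbp gRNA (log2 fold change -0.99, SE 0.082, edgeR adjusted p = 7.03e-08). No Tardbp gRNA library reached a Control gRNA library. The highest of that list was Coprs at 0.61, a gene with under 6 CPM in every library.

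Of 10 tested genes of the minor spliceosome, which removes the rare U12-type introns, 6 rose, none fell and 4 did not pass the test (median 0.23, beside 23.5% of all tested genes called higher). The called genes reached from Snrnp25 at 0.17 to Zmat5 at 0.48, and the difference of this list from the core genes was not tested. Zmat5, which encodes a protein of the U11/U12 particle, had 43.5, 46.7 and 50.8 CPM in Control gRNA and 60.7, 65.4 and 70.0 CPM in Tardbp gRNA, with no overlap. Of 62 tested other factors of the major spliceosome, 29 fell and 11 rose (median -0.09), from Dhx38, the gene of the Prp16 helicase, at -0.79 to Zmat2, the gene of a B complex protein, at 0.56. Of 8 genes of the exon junction complex, 3 fell and 1 rose (median -0.07), from Eif4a3 at -0.21 to Sap18 at 0.17. The other splicing genes showed the slant with length too (Pearson r -0.35 over 106 genes). Of 15 such genes under 1000 bases 9 rose and 1 fell, and of 43 genes of 3000 bases and over 9 rose and 21 fell.

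Promoter sequences from RefSeq (GRCm38.p6, 250 bases before to 50 after the start) were found for 32 of the 40 members. The letters CCGGAAG, the core of ETS family sites, were present on either strand in 13 of these 32 promoters (40.6%) and in 19.5% of 10318 promoters of tested genes. They were in 8 of 19 promoters of members that fell and in 4 of 8 of members that rose. The letters CCAAT were in 43.8% of member promoters and in 39.0% of all. AAGATGGC, a core of YY1 sites, was in 3.12% and 4.88%, and GCATGCGC, from NRF1 sites, in 6.25% and 5.59%. A match is a description of letters and not a binding site. The 120 bases before the start are shown for the pair of members with the lowest fold changes, both on the plus strand, at chr2:127208266-127208385 and chr19:10895111-10895230. Capitals mark CCGGAAG and, in Prpf19, also CCAAT.
Snrnp200: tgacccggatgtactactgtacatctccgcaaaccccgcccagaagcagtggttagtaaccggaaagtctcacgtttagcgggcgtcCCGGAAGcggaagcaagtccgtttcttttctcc
Prpf19: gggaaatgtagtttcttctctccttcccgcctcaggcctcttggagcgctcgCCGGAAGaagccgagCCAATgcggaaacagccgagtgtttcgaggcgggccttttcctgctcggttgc

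Transcripts were examined next, to ask which isoforms carried the change. Of 246 annotated transcripts of the members, 160 were tested. In Tardbp gRNA 27 were lower and 4 higher (edgeR adjusted p under 0.05). These are 31 calls of 160, beside 16.6% called among all tested transcripts. The share by direction over all transcripts is not given here, so neither the count nor its split is read as particular to the members. Of those called lower, 26 were protein-coding. Among the called transcripts that held over 5% of their gene's counts, the lowest was Snrnp200-201, with 178, 224 and 269 CPM (lowest, median and highest) in Control gRNA and 92.6, 123 and 147 CPM in Tardbp gRNA (log2 fold change -0.92, edgeR adjusted p = 1.36e-05). It held 99.8% of the gene's counts in Control gRNA. Prpf19-201 (-0.91), Prpf8-201 (-0.79), Sf3b3-201 (-0.78) and Luc7l-201 (-0.75) followed. The highest were Snrpg-201 at 0.20 and Sf3b6-201 at 0.17, and next Cdc5l-201 (-0.15), Rbm22-201 (-0.15) and Sf3b2-201 (-0.16). Each of these 10 transcripts had the sign of its gene's log2 fold change.

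Besides Snrpg-201 and Sf3b6-201, the transcripts called higher were annotated as retained introns, Sf3b3-205 (log2 fold change 0.40, edgeR adjusted p = 0.0251) and Sf3a1-203 (0.77, adjusted p = 0.0153). Both belong to genes whose total fell. The transcript called lower that was annotated for nonsense-mediated decay, Bcas2-202, rested on Control gRNA replicate 3, with 113 CPM beside 0.122 to 0.785 CPM in the other Control gRNA libraries.

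The share of each transcript in the counts of its gene was tested for 157 transcripts in 37 members. None changed by over 10 percentage points with a limma adjusted p under 0.05, beside 0.63% of all 32701 transcripts (24 of the 157, or 15.3%, had an unadjusted p under 0.05, beside 17.2% of all transcripts). With no threshold on size, a choice made after seeing the data, 6 were called (4.45% of all transcripts). These were 4 retained-intron transcripts that gained share and the main transcripts of Sf3b3 and Sf3a1, which lost it. Luc7l2-210 went from 3.52 ± 1.94% to 10.3 ± 2.63% of the counts (SD over 8 libraries a group, limma adjusted p = 0.00348), with CPM between 0 and 1.83 in Control gRNA and between 2.22 and 4.54 in Tardbp gRNA (edgeR adjusted p = 0.0754 for its level). Sf3b3-205 went from 2.44 ± 0.464% to 5.36 ± 1.16% (limma adjusted p = 0.00192), while Sf3b3-201 went from 96.6 ± 0.476% to 93.4 ± 1.2%. Prpf31-205 went from 2.6 ± 0.229% to 3.93 ± 0.259% (limma adjusted p = 7.47e-05), and Sf3a1-203 from 0.31 ± 0.086% to 0.864 ± 0.217%.

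The share of counts in all transcripts annotated as retained intron, for nonsense-mediated decay or as processed transcript was then summed per gene. This measure was added after seeing the data and could be tested in 38 members. In 4 of them it rose and in 1 it fell (limma adjusted p under 0.05), beside 8.8% of 8275 genes called, 683 of these higher and 45 lower. The median difference was 0.24 percentage points over the members and 0.25 over all genes. In Prpf31 the share had a lowest, median and highest value of 2.67, 3.43 and 4.22% in Control gRNA and of 4.56, 5.05 and 5.45% in Tardbp gRNA (adjusted p = 0.000345). In Sf3b3 it went from 2.88, 3.33 and 4.12% to 5.34, 6.6 and 8.43% (adjusted p = 0.000701), and in Sf3a1 from 0.266, 0.383 and 0.594% to 0.724, 1.25 and 1.37% (adjusted p = 0.00122). The groups did not overlap in these 3 genes, whose total level fell. The share of all 8275 genes without overlap in this measure is not given here, so the lack of overlap is not read as particular to the members. In Sf3b1 the mean went from 14.1 ± 1.4% to 19.4 ± 3.89% with overlap (SD over 8 libraries a group, limma adjusted p = 0.0333), and the Tardbp gRNA libraries reached from 11.9 to 22.3%. Most of this was the retained-intron transcript Sf3b1-203, whose CPM did not pass the test (log2 fold change 0.10, edgeR adjusted p = 0.613) while the protein-coding Sf3b1-201 fell by 0.43. In Snrpg the share fell, from 4.48 ± 0.88% to 3.22 ± 0.435% (limma adjusted p = 0.0333).

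**Figure D4:**
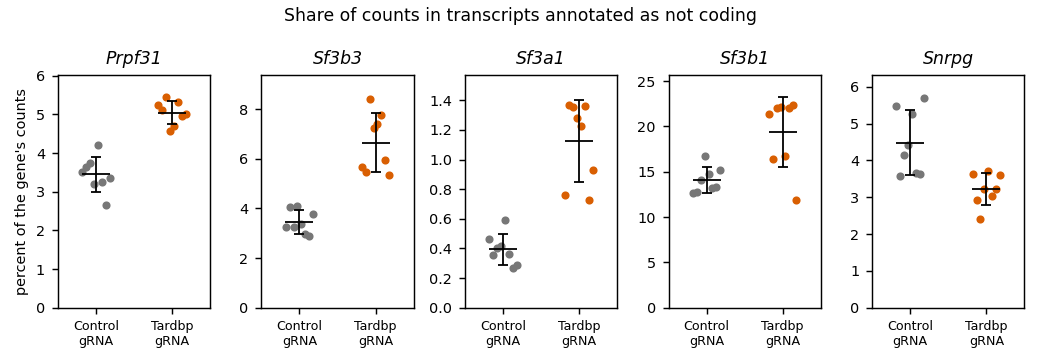
Percent of each gene's counts in transcripts annotated as retained intron, for nonsense-mediated decay or as processed transcript (vertical axes, from 0) in the 8 Control gRNA (grey) and 8 Tardbp gRNA (orange) libraries, with the mean and SD in black. Prpf31, Sf3b3 and Sf3a1 show no overlap between the groups, Sf3b1 shows one with values from 11.9 to 22.3% in Tardbp gRNA, and Snrpg is lower in Tardbp gRNA.

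To ask whether the spliceosome genes were themselves spliced differently, the deposited Psi values, the fraction of transcripts that include a stretch of a gene (a node), were read for each group. There were 527 nodes in 39 members, of which 440 were core exons, 35 transcript ends, 32 transcript starts, 8 alternative donors, 6 alternative acceptors and 6 retained introns. Sf3b5 had none. No node of a member passed both thresholds of the study, with a probability above 0.9 and Psi values more than 0.1 apart, beside 0.473% of all 125520 nodes. Psi was deposited as 1 value per group, so no replicate error can be given for it. The members' nodes were mostly fixed, with a median Psi of 0.998 in Control gRNA, and 37 of the 527 had a Psi between 0.1 and 0.9. The median size of the Psi difference was 0.00064 in the members and 0.00545 over all nodes. By type it was lower in the members for core exons (0.00052 and 0.00404) and for each other type except alternative donors (0.0259 and 0.0189). The median Psi of all nodes is not given here, so the part of fixed nodes in this contrast was not tested. Core exons of the members reached at most 0.0691.

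Just 2 nodes had a probability over 0.9, neighbouring core exons of Prpf19. They were exon 4 (chromosome 19, 10898983 to 10899124), whose Psi was 0.995 in Control gRNA against 0.979 in Tardbp gRNA (probability 0.933), and exon 5 (10899205 to 10899278), with 0.995 and 0.979 (probability 0.934). Both are among the 16 exons of Prpf19-201 and lie on the plus strand. The coding sequence of exon 5 is shown in lower case as the exon with the highest probability among the 527 nodes.
Prpf19 exon 5: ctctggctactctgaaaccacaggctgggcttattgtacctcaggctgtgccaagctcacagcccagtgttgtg

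**Figure D5:**
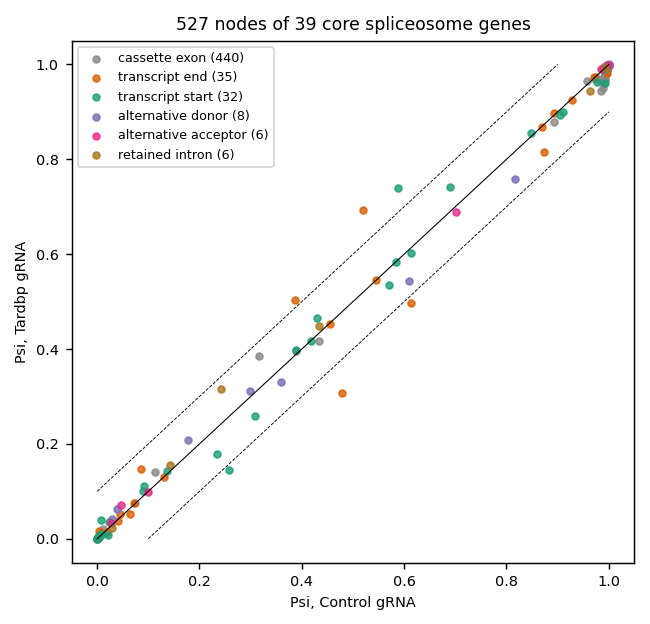
Psi in Tardbp gRNA (vertical axis) against Psi in Control gRNA (horizontal axis) for the 527 nodes of the core spliceosome genes, coloured by type. The solid line marks equal values and the dashed lines a difference of 0.1. The points beyond the dashed lines are starts and ends of Luc7l2, with a probability of at most 0.808.

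U2af1 carries a pair of alternative exons, known as mutually exclusive in its protein-coding transcripts and chosen for display after their values were seen. The first (chr17:31652502-31652568, minus strand, GRCm38) had Psi values of 0.114 (Control gRNA) and 0.142 (Tardbp gRNA) (probability 0.831). The second (chr17:31651646-31651712) had 0.892 and 0.878 (probability 0.736). Both are 67 bases long, and 44 of the 67 positions are identical. Capitals mark the 23 positions at which they differ.
U2af1 first exon: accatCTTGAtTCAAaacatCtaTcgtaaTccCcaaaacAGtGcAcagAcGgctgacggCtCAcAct
U2af1 second exon: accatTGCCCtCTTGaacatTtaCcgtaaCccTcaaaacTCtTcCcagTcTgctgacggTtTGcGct
Inclusion was also rebuilt from transcript counts divided by transcript length. On that scale it is the share of the spanning transcripts whose exons hold the node. Rebuilt inclusion of the second exon was 0.878 ± 0.0291 in Control gRNA and 0.872 ± 0.0238 in Tardbp gRNA (SD over 8 libraries a group, limma adjusted p = 0.904). That of the first was 0.394 ± 0.0536 and 0.39 ± 0.0919 (adjusted p = 0.982), well above its Psi, so the 2 measures differ in level for this exon. The annotated transcript U2af1-208, of 9 exons and classed for nonsense-mediated decay, holds both exons, and it took 25.7 ± 5.5% of the gene's counts in Control gRNA and 24.9 ± 11.1% in Tardbp gRNA.

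The LUC7-like genes held the widest Psi differences, which are given as values chosen after they were seen. At the 3′ end of Luc7l2, a node of 1327 bases (chromosome 6, 38605041 to 38606367) went from 0.52 to 0.693 (probability 0.808) and the node before it (38603469 to 38605040) from 0.479 to 0.307 (probability 0.763). Both lie in the last exon of Luc7l2-208. Rebuilt inclusion of the first of these was 0.382 ± 0.0405 and 0.345 ± 0.033 (SD over 8 libraries a group, limma adjusted p = 0.544), a difference of the other sign. A transcript start of Luc7l2 (38551465 to 38551802) went from 0.588 to 0.74 (probability 0.668). A core exon of 30 coding bases within Luc7l2 (chr6:38598785-38598814, plus strand), annotated in Luc7l2-201 and included in part of the transcripts, had a Psi of 0.388 and 0.396 (probability 0.508). Its sequence is shown because it is the shortest core exon that LUC7-like transcripts held in part.
Luc7l2 exon: gtcccgatcacatagcaagaatcccaaaag
In Luc7l3, a retained intron (chromosome 11, 94291579 to 94292926) went from 0.241 to 0.315 (probability 0.723) and the core exon next to it (94292927 to 94293032) from 0.316 to 0.385 (probability 0.729). In Luc7l, an alternative donor (chromosome 17, 26280129 to 26280164) went from 0.61 to 0.544 (probability 0.824), with a rebuilt inclusion of 0.708 ± 0.0317 and 0.684 ± 0.0288 (adjusted p = 0.697).

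Rebuilt inclusion could be tested for 49 nodes in 22 members. None was called at a limma adjusted p under 0.05 with a difference over 0.1, beside 0.237% of all 17315 nodes tested. None had an unadjusted limma p under 0.05, beside 1673 of all 17315 nodes. The lowest adjusted p was 0.527. Differences of a few percentage points were not detectable where the SD between libraries was as wide as 0.129, as for the core exon of Luc7l3.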

How the data were processed

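RNA of sorted CD8+ T cells was sequenced as paired reads after SMART-Seq v4 and Nextera XT, in 16 libraries. The authors aligned reads with HISAT2 2.1.0 to mm10 and made the deposited estimated counts per gene and transcript with StringTie 2.1.0, without normalization; strand was not used, so reads of overlapping genes cannot be told apart. The authors ran Whippet and deposited Psi as a fraction per group, with a probability score. Deposited totals of reads, taken here as read pairs, were 29714709 to 48164083 per library. The estimated counts in annotated genes came to 1.885 to 2.025 for each of these. Deposited RNA concentrations (unit not given in the sources used here) served as a covariate. The Psi columns are named by letter, and their orientation was taken from events described by the study.

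From the gene table and the transcript table, 10 columns each were set aside because they belong to none of the samples, and lines naming no gene, with 0.0836 to 0.132% of counts, were left out. Names, coordinates and exons came from GENCODE M21 (GRCm38). Genes and transcripts were tested with edgeR 4.0.16 in R 4.3.3 (quasi-likelihood, TMM, filterByExpr with a minimum count of 10), shares and rebuilt inclusion (mean count over 50) with limma 3.58.1, all over the whole table with Benjamini-Hochberg adjustment, and Tardbp also by permutation in SciPy 1.17.1. Counts were whole and were not rounded. PCR copies were counted. Per the study, each group was purified from individual recipient mice, while whether donor cells were edited separately for each is not given in the sources used here. Depth limits the precision of minor transcripts. Each test was tested on simulated data. Symbols not matched were Nhp2l1, Cwc21 and Cenatac.

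The members and gene lists were chosen with earlier results of these data known. Values were given for Tardbp, for the member with the lowest adjusted p and with the widest log2 fold change in each role, for the 5 lowest and 5 highest members, for the lowest and highest called gene of each further list, for called transcripts over 5% of their gene (5 lowest, 5 highest), and for nodes past the thresholds or with a probability over 0.9. Alternatives were DESeq2 1.42.0, other scalings, no filter, a replicate block, other covariates (among them RNA concentration and the letter M or F) and subsets of libraries.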

Additional observations from a re-analysis of the deposited data

Results flagged for a closer look

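Of 82 groups of 8 libraries (the 40 members and Tardbp, 2 groups each), 11 held a library far from the other 7 by the gap to its nearest neighbour, where chance gives about 1 in 20, or 4.1. Tardbp gRNA replicate 3 was such a library for U2af1 (72.0 CPM beside 112 to 140.3 CPM in the others), Sf3a3 (188 beside 221 to 236 CPM), Tardbp itself (110.4 beside 129.8 to 147 CPM) and, on the high side, Snrpb (676 beside 604.5 to 630.3 CPM). Control gRNA replicate 1 was the high library for Snrpg (319.6 beside 254 to 278 CPM), Snrpa1 (258 beside 199.7 to 226 CPM) and Snrpb (737 beside 610.1 to 667.5 CPM). Tardbp gRNA replicate 1 was high for Luc7l (102 beside 84.8 to 91.7 CPM) and Sf3a2 (87.8 beside 72.4 to 79.2 CPM), replicate 4 for Snrpd2 (178 beside 151.5 to 163 CPM) and replicate 8 for Rbm22 (95.6 beside 82.2 to 86.9 CPM). Without Tardbp gRNA replicate 3, 31 members were called, 8 higher and 23 lower.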

How the results depend on the processing

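All 23 members called lower and all 9 called higher kept their direction in every setting tried, and 21 and 6 of them also kept their call outside the fits on numbers 1 to 3 and with RNA concentration. The count of 32 called members was 33 with DESeq2, 30 with no filter on low counts, and 32 within the libraries numbered 4 to 8. With the libraries numbered 1 to 3 alone it was 10 (0 higher, where edgeR also gave 0 at an unadjusted p under 0.05, and 10 lower), and of the other splicing genes 2 were higher and 13 lower; that fit has 3 libraries per group. With RNA concentration (log2) added as a covariate it was 16 (0 higher, with 3 at an unadjusted p under 0.05), and of the other splicing genes 8 were higher and 23 lower; the groups do not overlap in this concentration, so it and the guide cannot be told apart. Among all tested genes calls fell as well, from 7783 of 16650 genes to 1696 of 16871 genes with numbers 1 to 3. With RNA concentration as a covariate, 2697 of 16650 genes were called. At an adjusted p under 0.01, 5 members were higher. The median of the members was -0.16 under upper quartile scaling (-0.161) and with library totals (-0.163), which moved the median of all genes to 0.12. Of members not called, Snrpa1 (-0.065) and Snrpb2 (-0.034) changed sign with numbers 1 to 3, Snrpb under upper quartile scaling (0.0047), library totals (0.0041) and RNA concentration (0.017), and Prpf38a under upper quartile scaling (0.046) and library totals (0.044); the cause was not tested. Transcript shares called went from 0 to 1 at a difference over 0.05 (Luc7l2-210) and to 6 with no size threshold. For the summed share in retained-intron, nonsense-mediated decay and processed transcripts, called members went from 5 to 3 within numbers 4 to 8. With the replicate number as a block, 31 members were called, 8 higher and 23 lower. With the letter M or F as a covariate the counts were the same, 31 called, 8 higher and 23 lower. No other count moved by over 1.5 times. The numbers do not pair the libraries: the correlation of same-numbered libraries was between -0.0048 and 0.16, and 2 of 8 correlated best with their own number. Depth, and the spread between libraries (SD 0.129 for a core exon of Luc7l3), limit the transcript and inclusion tests.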
